A study of Mus musculus with 15 samples.

Results

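The receptors through which hormones and nerves drive secretion from the exocrine pancreas, together with the substance P precursor Tac1 and its receptor Tacr1, were followed as 9 genes of the 20660 genes on the array. The receptors are Cckar and Cckbr for cholecystokinin and gastrin, Grpr for gastrin-releasing peptide, Chrm1 and Chrm3 for acetylcholine, Sctr for secretin and Vipr1 for vasoactive intestinal peptide. Members were found by matching the RefSeq accession of each probe to its gene, which gave 15 probes for the 9 genes. A probe was kept when the scanner software flagged it as well above background on at least 3 of the 15 arrays, and 12 of the 15 probes were kept. This left 7 of the 9 genes to test, among 17338 genes tested in all, because neither probe of Chrm1 and not the single probe of Tacr1 reached that signal.

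The mice were male and of strain C57BL/6J, and the RNA of each whole pancreas was labelled with Cy3 and read on its own one-colour Agilent array. All mice were fasted for 18 h, given 1 intraperitoneal injection, and killed 3 h later per the labels' protocol, although the saline animals carry a time label of 0 h. The groups are wild type mice given saline (WT, replicates 5 to 8, n = 4), wild type mice given cerulein at 50 µg/kg (replicates 9 to 12, n = 4), transgenic mice given saline (TG, replicates 2 to 4, n = 3) and transgenic mice given the same dose of cerulein (replicates 13 to 16, n = 4). Cerulein is a cholecystokinin analogue that stimulates enzyme secretion and, in excess, elicits acute pancreatitis in rodents. That the transgene concerns betacellulin (Btc), a growth factor that binds EGFR and ERBB4, is known from the title of the series alone, and the sources used here give neither the promoter of the transgene nor the animals' age. The Btc probe does not check that label: Btc differed between transgenic and wild type mice by 0.55 ± 0.48 (SE, log2, limma adjusted p = 1) after saline and by 0.49 ± 0.45 (adjusted p = 0.837) after cerulein, and whether it reads the transgene is not known.

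In acinar cells, the enzyme-secreting cells of the pancreas, the CCK, bombesin and muscarinic M1 and M3 receptors act through the Gq class of G proteins, phospholipase C and calcium release, and the secretin and VIP receptors act through Gs and cyclic AMP, in duct cells as well. Substance P is a tachykinin neuropeptide, best known from sensory nerve endings, where it promotes plasma leakage and inflammation through the Tacr1 receptor. Cerulein itself acts on the CCK receptors, so the gene of its main acinar receptor is among those followed here.

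The promoters of Tac1 and Grpr are shown because these genes had the largest increase and the largest decrease among the members. Each sequence runs 5′ to 3′ on the strand of the gene from 250 bases before to 50 bases after the transcript start given by RefSeq, on build GRCm38.p6. Capitals mark TGACG, the core of the cyclic AMP response element, or its reverse complement CGTCA.
Tac1, chr6:7554811-7555110, plus strand: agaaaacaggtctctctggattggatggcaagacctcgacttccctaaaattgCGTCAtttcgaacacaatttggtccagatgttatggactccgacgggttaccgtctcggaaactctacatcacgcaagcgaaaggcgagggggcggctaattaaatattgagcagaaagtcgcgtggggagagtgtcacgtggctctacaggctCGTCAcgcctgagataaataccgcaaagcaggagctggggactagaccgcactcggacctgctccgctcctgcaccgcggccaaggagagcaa
Grpr, chrX:163549687-163549986, minus strand: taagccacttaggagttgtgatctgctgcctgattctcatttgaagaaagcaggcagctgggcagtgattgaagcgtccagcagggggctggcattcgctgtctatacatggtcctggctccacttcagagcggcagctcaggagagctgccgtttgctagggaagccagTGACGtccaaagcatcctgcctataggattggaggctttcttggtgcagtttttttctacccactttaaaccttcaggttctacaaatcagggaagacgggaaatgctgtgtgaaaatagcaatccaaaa
RefSeq promoters were at hand for 6 of the 9 members (Cckbr, Grpr, Chrm3, Vipr1, Tac1 and Tacr1), and both strands were searched. TGACG occurred in 4 of the 6 and in 20.8% of all 32851 promoters of the same length. Positions are those of the leftmost base of TGACG or CGTCA, read on the strand of the gene. They were -197 and -43 in Tac1, -80 in Grpr, -13 in Vipr1 and -226 in Tacr1. The Grpr match read TGACG and the others CGTCA. The full element TGACGTCA, which contains TGACG on both strands, was in 0 of the 6 member promoters and 1.79% of all promoters, and the AP-1 motif TGANTCA in 0 of 6 and 7.81%. A match or its absence describes these letters in this window only.

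Levels are log2 processed signal minus the 75th percentile of the array's probes, so 0 is the 75th percentile of that array, and they are compared for 1 probe across arrays, never between probes. The 75th percentile ranged from 152 to 529 intensity units and between 54.9% and 76% of an array's probes passed the background flag. It was 152 to 283 on saline arrays and 201 to 529 on cerulein arrays, so the scaling differs with treatment. All 13 measured acinar markers were well above background on all 15 arrays. The arrays lie on 3 slides. Slides 1 and 3 hold every group, and slide 2 holds 3 arrays, all cerulein. Slide 1 holds 2 transgenic cerulein arrays and 1 array of each other group. Slide 3 holds 3 wild type saline arrays, 2 transgenic saline arrays and 1 cerulein array of each genotype. Differences within a slide thus rest on 1 to 3 arrays per group. Each gene was read from the kept probe with the highest mean level. A gene was called when limma's p, adjusted by the Benjamini-Hochberg method over 17338 genes, was below 0.05. Folds are linear ratios converted from the log2 differences. The animals are numbered separately, and p-values measure the spread between these 15 arrays.

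**Figure D1:**
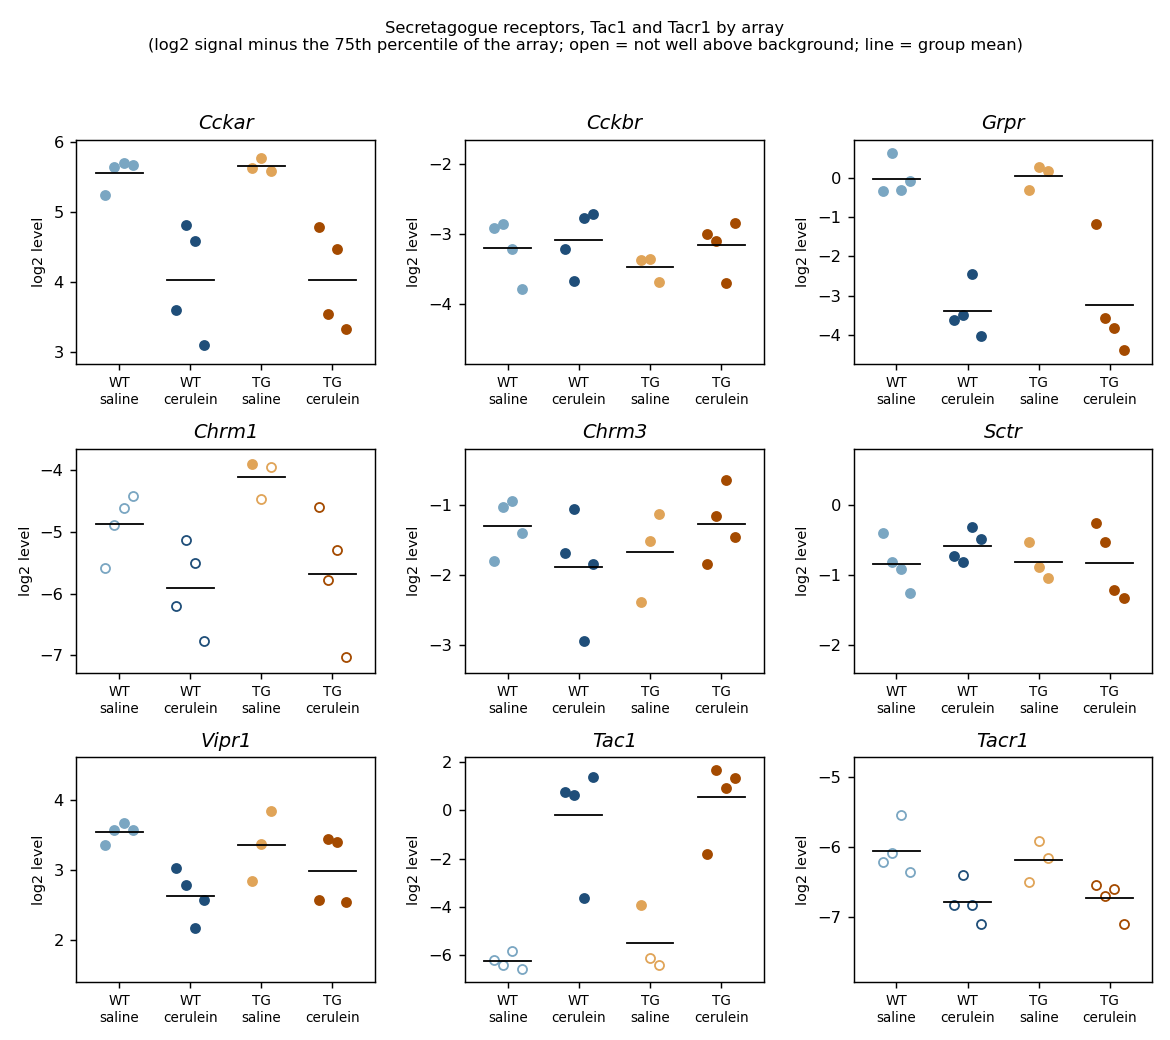
Levels of the 9 genes on each array (log2 processed signal minus the 75th percentile of the array), 1 panel per gene with its own axis. Filled points are arrays on which the probe was well above background, open points are arrays on which it was not, and the line is the group mean (n = 4, 4, 3 and 4). Grpr and Cckar lie lower, and Tac1 higher, on every cerulein array than on any saline array of the same genotype, while both Tacr1 and Chrm1 are nearly all open points.

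In wild type mice, cerulein lowered Cckar, Grpr and Vipr1 and raised Tac1, while Cckbr, Chrm3 and Sctr did not pass the test. That is 4 of 7 tested members called, where 14% of all genes tested were called, with 3 down where 8.35% of all genes were and 1 up where 5.64% were. In transgenic mice, Cckar and Grpr fell and Tac1 rose, which is 3 of 7 members called against 8.2% of all genes, with 2 down against 3.41% and 1 up against 4.78%. With slide as a block the counts were 2 of 7 in wild type mice (Grpr and Tac1) where 21.5% of all genes were called, and 3 of 7 in transgenic mice where 23.6% were. No member was called in a comparison of the genotypes. Tac1 passed the background filter through the 4 cerulein arrays of each genotype and 1 transgenic saline array. The members were chosen with earlier results of these data known, so a share above that of all genes is a description and not a test. The median difference over all genes was -0.06 in both genotypes. Cerulein and saline arrays did not overlap for 4 of 7 members in wild type mice, where 17.4% of all genes did not. In transgenic mice this held for 3 of 7 members, where it held for 21.6% of all genes.

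**Figure D2:**
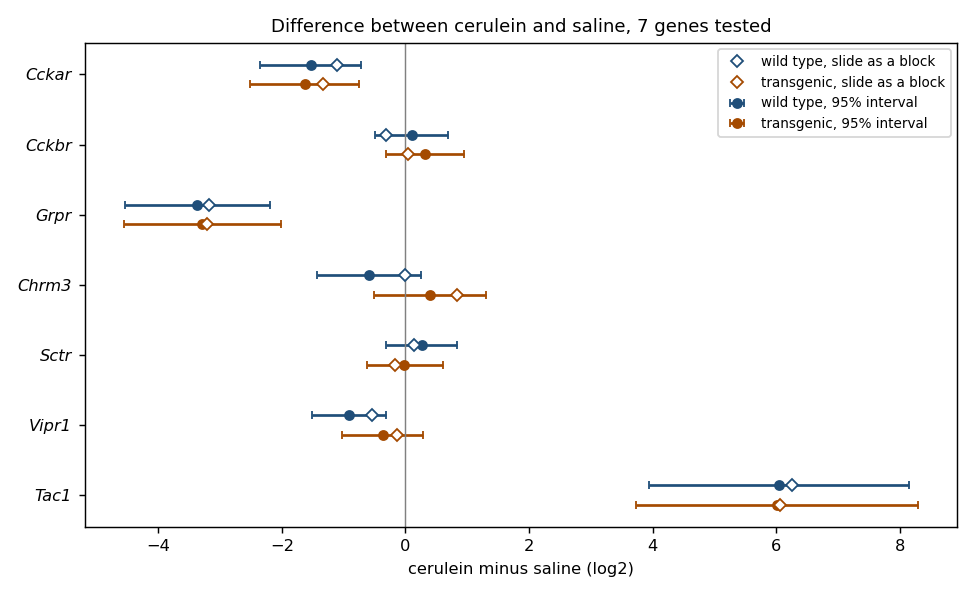
Difference between cerulein and saline (log2, horizontal axis) for the 7 tested genes in wild type and transgenic mice, as filled circles with 95% intervals from limma. Open diamonds give the difference with slide as a block. Grpr sits at -3.37 and -3.29 and Tac1 at 6.05 and 6.01 in the wild type and transgenic mice, and the wild type Cckar and Vipr1 values move toward 0 with slide in the model.

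The first members by role are the Gq-coupled peptide receptors. Cckar (chr5:53698485-53707704, GRCm38.p6), the CCK receptor of rodent acinar cells and the main target of cerulein there, was well above background on all 15 arrays. In wild type mice its log2 level was 5.24, 5.64, 5.70 and 5.67 on the saline arrays (replicates 5 to 8) and 3.6, 4.81, 4.59 and 3.1 on the cerulein arrays (replicates 9 to 12). Every cerulein array was lower than every saline array, and the cerulein arrays were spread more widely. The processed signals before scaling overlapped, at 7590 to 10200 intensity units after saline and 3270 to 9870 after cerulein. The group means were 5.56 ± 0.22 (SD, n = 4) and 4.03 ± 0.81 (SD, n = 4), a fall of 2.9-fold (log2 -1.53 ± 0.38 SE, limma adjusted p = 0.0155). Once slide was a block the difference was -1.11 (adjusted p = 0.0683) and was not called, and it was -1.63 within slide 1 and -0.86 within slide 3.

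In transgenic mice Cckar was at 5.63, 5.77 and 5.58 after saline and at 4.78, 3.54, 4.47 and 3.33 after cerulein. The groups again did not overlap, and the 3 saline arrays lay closer together than the 4 cerulein arrays. Before scaling, the processed signals overlapped, at 9000 to 14000 intensity units after saline and 3700 to 9080 after cerulein. The means of 5.66 ± 0.10 (SD, n = 3) and 4.03 ± 0.70 (SD, n = 4) differed 3.09-fold (log2 -1.63 ± 0.41 SE, limma adjusted p = 0.0234), with -1.34 (adjusted p = 0.0272) with slide as a block and -1.47 and -1.20 within slides 1 and 3. The call did not hold without saline replicate 2, 3 or 4 (adjusted p = 0.061, 0.0989 and 0.0742) or without cerulein replicate 14 or 16 (0.0749 and 0.0633), while the difference stayed between -1.88 and -1.40 over the fits that leave out 1 array each.

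In a bulk sample, fewer cells of a type and less RNA per cell cannot be told apart. Of 13 measured acinar markers, 1 rose and 2 fell in wild type mice. These were the acinar transcription factors Ptf1a (1.17), Rbpjl (-1.81) and Bhlha15 (-1.24), beside 5.64% and 8.35% of all genes that rose and fell, and the list had a median of -0.77 that was -0.25 with slide as a block. Bhlha15 was called at an adjusted p of 0.0466 and not with slide as a block (-0.68, adjusted p = 0.154). In transgenic mice 1 rose and 1 fell, beside 4.78% and 3.41% of all genes, with a median of -0.70, or -0.31 with slide as a block. The mean level of the list ran from 9.34 to 10.02 on wild type saline arrays, 8.57 to 9.73 on wild type cerulein arrays, 9.10 to 9.77 on transgenic saline arrays and 8.47 to 9.33 on transgenic cerulein arrays. Such a shift was not particular to acinar markers. The 8 islet markers had medians of -0.67 in wild type and -0.59 in transgenic mice, or -0.17 and -0.21 with slide as a block. The endothelial markers had medians of -0.39 in wild type and 0.06 in transgenic mice. The part of acinar content in the Cckar difference was not tested.

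Cckbr (chr7:105425676-105436339), the CCK and gastrin receptor of stomach and brain, was above background on all 15 arrays with the probe read for it. Its levels ran from -3.79 to -2.86 after saline and from -3.68 to -2.72 after cerulein in wild type mice, and from -3.69 to -3.36 and from -3.70 to -2.84 in transgenic mice. The groups overlapped in both genotypes, and the differences were 0.10 (95% interval -0.49 to 0.69, limma adjusted p = 0.814) and 0.31 (-0.32 to 0.95, adjusted p = 0.589). A second Cckbr probe was above background on 8 of 15 arrays and differed by 0.25 and 0.17 in the 2 genotypes.

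Grpr (chrX:163513904-163549736), the receptor for gastrin-releasing peptide and a secretory receptor of rodent acinar cells, fell furthest of the members. In wild type mice it was at -0.33, 0.62, -0.32 and -0.08 after saline and at -3.61, -3.50, -2.46 and -4.03 after cerulein, well above background on every array. The gap between the lowest saline and the highest cerulein array was wider than the spread within either group, and replicate 11 was the highest of the cerulein arrays. The means of -0.03 ± 0.44 (SD, n = 4) and -3.40 ± 0.67 (SD, n = 4) differed 10.4-fold (log2 -3.37 ± 0.55 SE, limma adjusted p = 0.00103). The difference was -3.18 with slide as a block (adjusted p = 0.00624), and -3.27 and -3.58 within slides 1 and 3.

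In transgenic mice Grpr was at -0.30, 0.26 and 0.17 after saline and at -1.18, -3.57, -3.83 and -4.38 after cerulein. Replicate 13 lay apart from the other cerulein arrays and still below all 3 saline arrays. The means of 0.05 ± 0.30 (SD, n = 3) and -3.24 ± 1.42 (SD, n = 4) differed 9.75-fold (log2 -3.29 ± 0.59 SE, limma adjusted p = 0.0029), with -3.21 (adjusted p = 0.00511) with slide as a block, -2.07 within slide 1, which holds replicate 13, and -4.05 within slide 3. Without replicate 13 the transgenic difference was -3.97, and without replicate 11 the wild type difference was -3.69. The size depended on the background correction: under normexp correction the differences were -1.94 and -1.98 (adjusted p = 0.000358 and 0.000669), where the median of all genes was -0.23 and -0.20.

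The muscarinic receptors gave no call. Chrm3 (chr13:9875486-10361062), the main acetylcholine receptor of acinar cells, was at -1.80, -1.04, -0.95 and -1.41 after saline and at -1.69, -1.06, -2.95 and -1.85 after cerulein in wild type mice. In transgenic mice it was at -2.39, -1.52 and -1.13 after saline and at -1.85, -1.17, -0.65 and -1.46 after cerulein. The groups overlapped in both genotypes, and wild type replicate 11 was the lowest of the 15 arrays. The cerulein difference was -0.59 (95% interval -1.43 to 0.25, limma adjusted p = 0.32) in wild type and 0.40 (-0.51 to 1.30, adjusted p = 0.638) in transgenic mice. These were -0.01 (adjusted p = 0.993) and 0.83 (adjusted p = 0.059) with slide as a block. Chrm1 (chr19:8664005-8683606), a further muscarinic receptor of the Gq class, was not well above background except on 1 transgenic saline array with 1 of its 2 probes, and the other probe was above background on 0 of 15 arrays. The measured Chrm1 levels ran from -7.09 to -3.90.

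The Gs-coupled receptors followed. Vipr1 (chr9:121642716-121672954), a receptor for vasoactive intestinal peptide, was at 3.35, 3.57, 3.66 and 3.57 after saline and at 3.02, 2.78, 2.16 and 2.56 after cerulein in wild type mice. No cerulein array reached a saline array, and the means of 3.54 ± 0.13 (SD, n = 4) and 2.63 ± 0.36 (SD, n = 4) differed 1.88-fold (log2 -0.91 ± 0.28 SE, limma adjusted p = 0.0443). This separation appeared only after scaling, as processed signals were 1810 to 2420 intensity units after saline and 1380 to 2470 after cerulein. In transgenic mice the levels of 2.84, 3.37 and 3.84 after saline and 2.56, 3.44, 3.39 and 2.54 after cerulein overlapped, with a difference of -0.37 (95% interval -1.02 to 0.28, adjusted p = 0.527).

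The wild type Vipr1 call rested on 1 probe and on the settings. The second Vipr1 probe, also above background on every array, differed by -0.05 in wild type and -0.28 in transgenic mice, neither called. The wild type difference was -0.54 with slide as a block (limma adjusted p = 0.15), and it was -0.33 and -0.82 within slides 1 and 3. The mean of both probes gave -0.48 (adjusted p = 0.0902), and the unfiltered gene table gave an adjusted p of 0.0524. Leaving out wild type saline replicate 6, 7 or 8 (adjusted p = 0.105, 0.112 and 0.0957), wild type cerulein replicate 11 or 12 (0.13 and 0.0969) or transgenic saline replicate 3 (0.0609) also ended the call.

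Sctr (chr1:120006879-120063539), the secretin receptor, which in pancreas is best known from duct cells, had 4 probes, all above background on all 15 arrays. Its brightest probe ran from -1.25 to -0.39 after saline and from -0.81 to -0.31 after cerulein in wild type mice, and from -1.04 to -0.52 and from -1.33 to -0.25 in transgenic mice. Groups overlapped, and the cerulein differences were 0.26 (95% interval -0.31 to 0.83, limma adjusted p = 0.515) and -0.02 (-0.63 to 0.60, adjusted p = 0.982). Over the other 3 probes the cerulein difference lay between -0.09 and 0.28 in wild type and between -0.11 and -0.01 in transgenic mice. Of 8 duct markers measured, 3 fell in wild type and 2 in transgenic mice, where 8.35% and 3.41% of all genes fell, with medians of -0.10 and 0.03. Sox9 was at -1.68 (limma adjusted p = 0.00334) in wild type mice and stayed called with slide as a block (-1.22, adjusted p = 0.00151). Once slide was a block, Muc1 (adjusted p = 0.0963) and Onecut1 (adjusted p = 0.19) were not called in wild type mice. In transgenic mice 2 of the 8 were called down with the block. The keratin gene Krt19 was called up with it in both genotypes (1.38 and 1.16, adjusted p = 0.013 and 0.027).

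**Figure D3:**
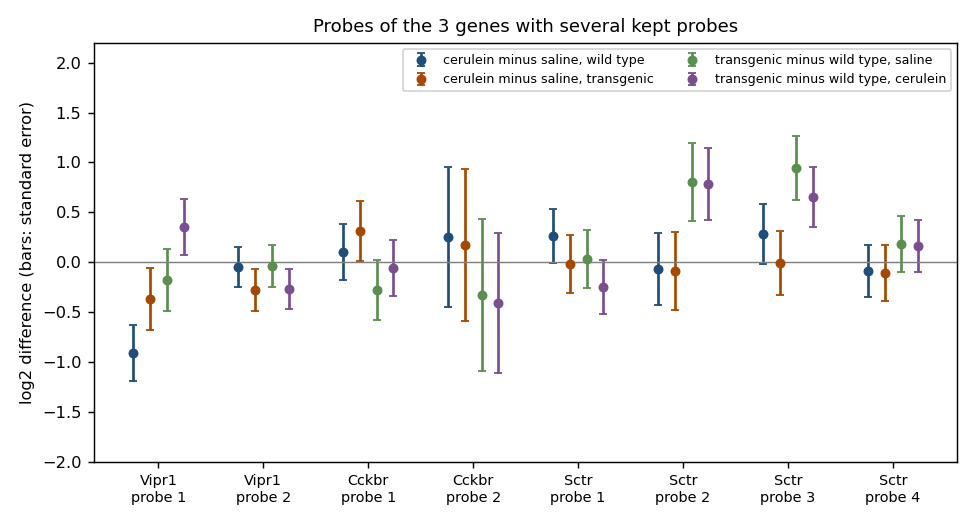
Log2 differences with standard errors (vertical axis) for each kept probe of Vipr1, Cckbr and Sctr, in 4 comparisons. The Vipr1 probes part in wild type mice (-0.91 and -0.05), and Sctr probes 2 and 3 lie above 0 in both comparisons of transgenic with wild type mice while probes 1 and 4 lie nearer to 0. Within slides 1 and 3, on 1 or 2 arrays per group, the transgenic minus wild type values of probes 2 and 3 after cerulein were 0.13 to 0.26. With slide as a block they were 0.57 and 0.54.

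The tachykinin pair consisted of a ligand gene that rose and a receptor gene that was not detected. Tac1 (chr6:7555061-7562978) was at -6.20, -6.38, -5.83 and -6.58 on the wild type saline arrays and at 0.78, 0.65, -3.64 and 1.40 on the wild type cerulein arrays. It was well above background on none of the 4 saline arrays and on all 4 cerulein arrays, with processed signals of 1.83 to 3.24 and 32.9 to 1010 intensity units. The cerulein arrays all lay above the saline arrays, and replicate 11 lay far below the other three. The saline level was below background, so a floor was set in its place. That floor was -4.26, the mean over saline arrays of the lowest signal well above background or the probe's own, whichever was higher. The cerulein mean of -0.20 ± 2.31 (SD, n = 4) was 16.6-fold above the floor, and the measured saline mean was -6.25 ± 0.32 (SD, n = 4). Unflagged probes can lie above such a floor, and with normexp correction the log2 difference was 2.02, so 16.6-fold is not a minimum. The fitted log2 difference of 6.05 ± 0.99 (SE, limma adjusted p = 0.00105) rests on saline values below background and is no bound either.

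In transgenic mice Tac1 was at -3.92, -6.13 and -6.38 after saline, well above background on replicate 2 alone, and at -1.81, 1.68, 0.94 and 1.34 after cerulein, above background on all 4 arrays. The groups did not overlap, and replicate 13 was the lowest cerulein array, with a signal of 94 against up to 1340 intensity units. The means were -5.47 ± 1.35 (SD, n = 3) and 0.54 ± 1.60 (SD, n = 4), a log2 difference of 6.01 ± 1.07 (SE, limma adjusted p = 0.00263), which rests on saline values mostly near background. With slide as a block the differences were 6.25 (adjusted p = 0.00451) in wild type and 6.06 (adjusted p = 0.00467) in transgenic mice. Within slides 1 and 3 they were 6.97 and 6.91 in wild type and 3.85 and 7.19 in transgenic mice.

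The size of the Tac1 difference followed the treatment of dim signals. It was 2.02 (limma adjusted p = 0.0382) and 2.63 (adjusted p = 0.0213) with normexp background correction, and 4.15 and 4.44 in the authors' deposited log2 table. Without wild type replicate 11 the wild type difference was 7.19, and without transgenic replicate 13 the transgenic difference was 6.79. Tacr1 (chr6:82402003-82560104), the substance P receptor, was above background on 0 of 15 arrays, with signals of 2.23 to 3.88 intensity units, so no difference was detectable at this signal.

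Because Tac1 is a nerve gene in many tissues, neuronal markers are given beside it. Of 13 listed, 11 were measured, and Uchl1, a general neuronal marker, was above background on 1 array. In both genotypes 1 of the 11 rose and none fell, beside 5.64% (wild type) and 4.78% (transgenic) of all genes that rose. Slc18a3, the vesicular acetylcholine transporter of cholinergic nerves, rose by 0.88 ± 0.19 (SE, log2, limma adjusted p = 0.0074) in wild type and by 0.79 ± 0.21 (adjusted p = 0.0285) in transgenic mice. The list medians were -0.16 and -0.20. The mean level of the list ran from -2.03 to -0.87 on wild type saline arrays, -1.97 to -1.30 on wild type cerulein arrays, -1.80 to -1.49 on transgenic saline arrays and -1.98 to -1.66 on transgenic cerulein arrays. Syp, a synaptic vesicle gene, was at -0.44 (adjusted p = 0.0384) in transgenic mice with slide as a block, and -0.66 (adjusted p = 0.15) without it. The part of nerve content in the Tac1 difference was not tested.

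Markers of enteroendocrine cells, some of which also make tachykinins, and of intestinal epithelium varied between arrays, most widely in transgenic mice. Of 6 listed, 5 were measured. Their mean level on the transgenic saline arrays was 1.76 on replicate 2, the array on which Tac1 was above background, and -0.89 and -0.95 on replicates 3 and 4. It ran from -1.57 to -1.23 on wild type saline arrays, -1.45 to -0.29 on wild type cerulein arrays and -0.71 to 1.58 on transgenic cerulein arrays. On wild type cerulein replicates 9, 11 and 12 it was -0.44, -0.68 and -0.29, above every wild type saline array. The list's median difference was 1.23 in wild type and -0.24 in transgenic mice, or -0.18 and -0.71 with slide as a block. Of the 5, only Vil1, a microvillus protein gene, was called, up by 2.53 ± 0.46 (SE, limma adjusted p = 0.00223) and by 2.23 ± 0.50 (adjusted p = 0.0113). That stands beside 5.64% and 4.78% of all genes that rose in wild type and transgenic mice. The part of such cells in the Tac1 values was not tested.

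The members that moved did not move alike on each cerulein array. Against the saline mean of its genotype, Tac1 changed by 7.03, 6.90, 2.61 and 7.65 on wild type replicates 9 to 12 and by 3.66, 7.16, 6.41 and 6.81 on transgenic replicates 13 to 16. Grpr changed by -3.58, -3.48, -2.44 and -4.01 and by -1.22, -3.62, -3.87 and -4.43 on the same arrays. Both genes thus changed least on replicate 11 in wild type and on replicate 13 in transgenic mice. Cckar changed by -1.96, -0.75, -0.97 and -2.46 and by -0.88, -2.12, -1.19 and -2.33, so it was also weakest on replicate 13 but changed least on replicate 10 in wild type mice.

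Values over other genes are given for these arrays, on genes called over the same arrays. Over the other genes called and changed at least 2-fold, the median share of the group's mean change was 97%, 95.8%, 101% and 105% on wild type replicates 9 to 12 (1695 genes) and 85.1%, 105%, 117% and 95.6% on transgenic replicates 13 to 16 (1196 genes). Atf3, a stress-induced transcription factor, changed by 9.22 on replicate 11 against 9.77 to 10.62 on the other wild type arrays, and by 9.65 on replicate 13 against 9.68 to 9.92 on the other transgenic arrays. Replicate 13 had the smallest change of the 4 transgenic arrays for 44.6% of the 1196 genes. Of the 4 wild type arrays, replicate 10 had the smallest change most often, for 35.9% of the 1695 genes, and replicate 11 for 31%. Crem changed by 2.63 on replicate 13 against 3.33 to 4.05, and by 2.92 on replicate 11 against 3.07 to 4.20. Rgs2 changed most on replicate 13, by 2.28 against 0.89 to 1.78, and by 2.51 on replicate 11 against 1.2 to 2.61. Replicates 11 and 13 were on different slides.

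**Figure D4:**
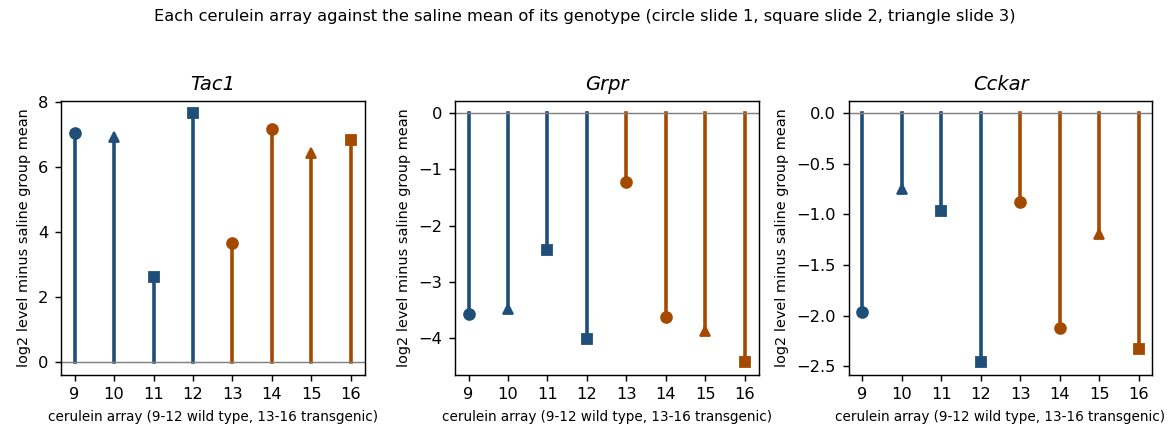
Change of Tac1, Grpr and Cckar on each of the 8 cerulein arrays against the saline mean of the same genotype (log2, vertical axis, a scale for each gene). Blue marks wild type and brown transgenic arrays, and the marker shape gives the slide. Tac1 rose by 2.61 on replicate 11 and 3.66 on replicate 13 and by 6.41 to 7.65 on the others, and Grpr changed least on the same arrays.

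Transgenic and wild type mice were compared next. After saline 0 of 7 members were called, where 0.075% of all genes were, and after cerulein 0 of 7, where 0.144% were. In the test of whether the cerulein response itself differed between genotypes 0 of 7 members were called, and 0% of all genes were. At an unadjusted p below 0.05 the count was also 0 of 7 in each of the 3 comparisons. Leaving out Tac1, the member differences lay between -0.38 and 0.10 after saline and between -0.25 and 0.61 after cerulein. Tac1 differed by 0.74 (95% interval -1.37 to 2.85) after cerulein, while after saline it was above background on 0 of 4 wild type and 1 of 3 transgenic arrays, so that the size of that difference was not measured.

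The intervals on the genotype difference in the response were wide. It was -0.03 (95% interval -3.14 to 3.07) for Tac1, a value that rests on those saline levels, 0.09 (-1.63 to 1.81) for Grpr and -0.10 (-1.29 to 1.10) for Cckar. For Vipr1, called in wild type mice alone, it was 0.54 (-0.35 to 1.42), so the genotypes were not shown to differ. The value furthest from 0 was that of Chrm3, at 0.98 ± 0.58 (SE, 95% interval -0.25 to 2.22, limma adjusted p = 1).

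The Sctr probes differed among themselves in the genotype comparisons. Probe 3 was at -2.90, -2.36, -3.19 and -2.65 on wild type saline arrays and at -2.15, -1.39 and -1.98 on transgenic saline arrays, and probe 2 at -2.34, -2.13, -2.95 and -2.43 and at -1.75, -1.31 and -1.92. All transgenic saline arrays were above all wild type saline arrays with both probes, while 6.62% of all genes tested did not overlap between these 2 groups. The differences were 0.94 (unadjusted p = 0.0113) and 0.80 (0.0568), with a limma adjusted p of 1 for each over 42181 probes, and after cerulein they were 0.65 and 0.78 (adjusted p = 0.725 for each). Within slides 1 and 3 the saline differences were 0.75 and 1.05 for probe 3 and 0.58 and 0.89 for probe 2. Those after cerulein, on 1 or 2 arrays per group, were 0.14 and 0.26 for probe 3 and 0.13 and 0.13 for probe 2. With slide as a block, probes 3 and 2 differed by 0.95 and 0.82 after saline and by 0.54 and 0.57 after cerulein, none called. Probes 1 and 4 differed by 0.03 and 0.18 after saline. Probe positions are not given in the sources used here, so it is not known which transcripts each probe reads. Fibroblast and stellate cell markers moved with genotype after both treatments. After saline 0 of 8 were called, with a median of 1.04, and their mean level ran from 0.54 to 1.09 on wild type and from 1.42 to 2.10 on transgenic arrays. After cerulein 3 of 8 were higher in transgenic mice, where 0.144% of all genes were called, with a median of 1.69 and mean levels of -0.19 to 1.02 and 1.25 to 2.78. With slide as a block 2 and 6 of the 8 were higher after saline and cerulein, where 39 and 89 of 17338 genes were. Other lists differed by genotype too. Without the block, medians after saline and cerulein were 0.29 and 0.38 for duct markers and 0.54 and 0.55 for islet markers. They were 0.88 and 1.11 for neutrophil and monocyte markers, and -0.23 and -0.15 for acinar markers. The part of these cell types in the Sctr values was not tested.

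The genes around the receptors were read from lists, and few passed. Among 12 measured of 14 other secretagogue and neuropeptide ligands, Npy, a transmitter of sympathetic nerves, fell in both genotypes, by 1.06 ± 0.32 (SE, log2, limma adjusted p = 0.0382) in wild type and by 1.79 ± 0.34 (adjusted p = 0.00451) in transgenic mice, and none rose. Cck and Sct, the hormones of 2 of these receptors, differed by 0.14 and -0.20 in wild type and by -0.16 and -0.31 in transgenic mice, and the peptide Grp was above background on 0 arrays. Calca, which encodes the CGRP peptide often released with substance P, differed by 0.92 (adjusted p = 0.0684) and 0.89 (adjusted p = 0.144), and the other tachykinin precursors Tac2 and Tac4 by 0.70 and 0.60 in wild type mice, none called. The probes were above background on 10 of 15 arrays for Npy, 7 for Calca, 8 for Tac2 and 3 for Tac4. The sizes of those differences thus rest partly on values below background. The list medians were 0.31 and 0. Vip was not called (0.75, adjusted p = 0.228) in wild type mice and reached 1.38 (adjusted p = 0.0136) with slide as a block, from a probe above background on 4 of 15 arrays.

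Among 12 measured of 18 related receptors, none was called in wild type mice and 1 rose in transgenic mice, F2rl1, the protease-activated receptor that trypsin cleaves, by 2.62 ± 0.76 (SE, limma adjusted p = 0.0469), against 1.57 ± 0.70 (adjusted p = 0.144) in wild type mice. Vipr2, the other VIP receptor, differed by -1.20 (adjusted p = 0.0673) and -1.01 (adjusted p = 0.201). The somatostatin receptor Sstr2 was not called (-0.75 and -0.64), and was called down in both genotypes with slide as a block (-1.09 and -0.89, adjusted p = 0.0123 and 0.0296). The medians of the list were -0.02 and -0.18. All 8 genes of peptide processing and degradation were measured and 0 were called in either genotype, with medians of -0.08 and -0.23. With slide as a block, the peptidase Ace was called in wild type mice (-0.40, adjusted p = 0.0234), against 0.32 without it.

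Downstream of Gq, 21 of 22 listed genes were measured, of which 4 fell and none rose in wild type mice and 1 fell in transgenic mice, with medians of -0.15 and -0.08. The G protein subunit Gna14 fell in both, by 0.90 ± 0.19 (SE, log2, limma adjusted p = 0.00665) and by 0.97 ± 0.21 (adjusted p = 0.00907). The phospholipase Plcb1 (-1.41 ± 0.31, adjusted p = 0.00746), the calcium-activated kinase Prkca (-1.11 ± 0.28, adjusted p = 0.0162) and the calcium channel of the endoplasmic reticulum Itpr2 (-1 ± 0.30, adjusted p = 0.0398) fell in wild type mice. In transgenic mice the same 3 genes were at -1.07 (adjusted p = 0.0619), -0.76 (adjusted p = 0.148) and -0.98 (adjusted p = 0.0793), and the difference between genotypes was not called for any gene. With slide as a block Itpr2 was called in transgenic mice (-0.66, adjusted p = 0.036) and not in wild type mice (-0.53, adjusted p = 0.0915).

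Downstream of Gs, 15 of 16 genes were measured. Crem, a cyclic AMP-responsive transcription factor gene, rose by 3.37 ± 0.37 (SE, log2, limma adjusted p = 4.13e-05) in wild type and by 3.49 ± 0.40 (adjusted p = 8.98e-05) in transgenic mice. The adenylyl cyclase Adcy9 (-0.86 ± 0.25, adjusted p = 0.0369) and the protein kinase A subunit Prkacb (-0.81 ± 0.22, adjusted p = 0.0261) fell in wild type mice, and the list medians were -0.29 and 0.02. In transgenic mice Adcy9 was at -0.67 (adjusted p = 0.164) and Prkacb at -0.76 (adjusted p = 0.067), and both were called with slide as a block (adjusted p = 0.0309 and 0.00929). Among 13 genes of receptor desensitisation, Rgs2, which shortens Gq signals, rose by 1.88 ± 0.38 (adjusted p = 0.00464) and by 1.54 ± 0.41 (adjusted p = 0.0319), and the arrestin Arrb1 fell in wild type mice (-0.72 ± 0.22, adjusted p = 0.0426). In transgenic mice Arrb1 was at -0.53 (adjusted p = 0.203), and was called with slide as a block (-0.33, adjusted p = 0.0304). The medians of that list were -0.14 and 0.04. The counts of these lists stand beside calls of 14% and 8.2% over all genes.

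For each member called, the genes with the closest pattern were named by the root mean square difference of centred log2 levels over the 15 arrays, as a description. For Cckar, whose own SD over the arrays was 0.96, they were Ctf1 (0.25), Rbl2 (0.25) and Dhrs3 (0.27). For Grpr (SD 1.88) they were Kcnn2 (0.57), Tbc1d30 (0.58) and Ppargc1b (0.60). For Vipr1 (SD 0.51) they were Slc2a8 (0.16), Gmds (0.17) and Aarsd1 (0.17). For Tac1 (SD 3.46) they were Gm9926 (1.09), Rcan1 (1.22) and Gdf9 (1.23). The distance grows with a gene's own spread, so it is not compared between members.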

How the data were processed

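Scanner output of 15 one-colour arrays was used. Per the file headers, the authors ran Agilent Feature Extraction 10.7.3.1, which gave background-subtracted processed intensity for each spot. The deposited flag columns (unit other, 0 or 1) mark spots well above background, saturated or outlying. The authors' deposited table of log2 values, whose normalization is not given in the sources used here, served as an alternative. Control and outlier spots were left out, spots of a probe were averaged, and no spot was saturated. Of 55681 probes, 42181 were kept (above background on at least 3 arrays). Symbols came from a RefSeq table of assembly GRCm38.p6, matched by accession for 27220 of 27752 probes with a RefSeq transcript. Levels were log2 signal minus the array's 75th percentile. The tests used limma 3.58.1 under R 4.3.3 (lmFit and eBayes on 4 group means, two-sided, Benjamini-Hochberg within each of 5 comparisons), and the fit was tested on simulated data. Genes called among the members got likeness lists of 3 genes. The arrays' number limits the precision, and the highest correlation between any pair of arrays was 0.988. Alternatives were slide as a block or alone, normexp with offset 50 (on the median spot signal, since the mean is not among the columns used), quantile normalization, other filters, the mean of probes, the deposited table and leaving out arrays. The members and gene lists were chosen with earlier results of these data known.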

Additional observations from a re-analysis of the deposited data

Results flagged for a closer look

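On 2 occasions 1 array of a group of 4 stood apart from the other three by a gap that, divided by the group's range, passed Dixon's 95% critical value. Cckar on wild type saline replicate 5 was at 5.24, against 5.64 to 5.70 on the other wild type saline arrays (gap over range 0.869). That array is the single wild type saline array on slide 1. Tac1 on wild type cerulein replicate 11 was at -3.64, against 0.65 to 1.40 on the others (gap over range 0.851). In all, 21 groups of 4 were checked, and chance flags about 1 in 20 such groups.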

How the results depend on the processing

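The calls of Grpr and Tac1 in both genotypes held under slide as a block, normexp, quantile normalization, no filter, the mean of probes, the authors' deposited table and each left-out array, and Grpr also with the filter on all arrays, where Tac1 has no value. The cause of calls lost elsewhere was not tested. With slide as a block the count of wild type members called went from 4 to 2. Over fits without 1 array it was 3 to 4 in wild type and 2 to 3 in transgenic mice, and 0 in the genotype comparisons. Within-slide differences have no test and gave no counts. Leaving out both cerulein replicates 11 and 13, an alternative chosen after seeing the data, gave Tac1 7.19 and 6.79 and Grpr -3.69 and -3.97. No paired analysis was possible because the groups share no replicate numbers. Over all genes, 557, 1222 and 134 had an unadjusted p below 0.05 in the 3 genotype comparisons, of which 13, 25 and 0 were called. Dim signals limit Chrm1, Tacr1 and the saline level of Tac1.

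Signs turned for differences that were never called. In wild type cerulein against saline, Cckbr was -0.31 with slide as a block, -0.23 with normexp, -0.13 with quantile normalization, -0.01 without replicates 11 and 13, and -0.09 to 0.30 over fits without 1 array. In transgenic mice Cckbr was -0.25 with normexp, and Sctr was 0.06 in the deposited table and -0.21 to 0.15 without 1 array. For transgenic against wild type after saline, Sctr was -0.02 with slide as a block and Tac1 -0.04 with normexp, and without 1 array Cckar was -0.01 to 0.15, Grpr -0.03 to 0.29, Sctr -0.12 to 0.18, Vipr1 -0.43 to 0.07 and Tac1 -0.01 to 1.23. After cerulein, Cckar was -0.10 with slide as a block and with quantile normalization, -0.01 in the deposited table, -0.06 without replicates 11 and 13, and -0.30 to 0.27 without 1 array. Cckbr was 0.04, 0.10 and 0.01 in the first 3 of these settings and -0.26 to 0.11 without 1 array. Grpr was -0.21 without replicates 11 and 13 and -0.52 to 0.54 without 1 array, Sctr was 0.34 with the mean of probes, and Tac1 was -0.41 to 1.52 without 1 array. The genotype difference in the response was -0.02 for Cckbr with normexp. For Grpr it was -0.03 with slide as a block, -0.04 with normexp, -0.29 without replicates 11 and 13 and -0.60 to 0.47 without 1 array. For Tac1 it was 0.61 with normexp, 0.28 in the deposited table and -1.18 to 0.75 without 1 array, and for Cckar -0.40 to 0.17 without 1 array.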
